A study of Homo sapiens with 9 samples.

Results

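The genes described here are 38 genes best known from neurons, out of 58735 genes counted in HEK293T, a line derived from human embryonic kidney and transformed with adenovirus and SV40 sequences. The list was drawn up with the fold changes of these same libraries in view, and SYP, NPTX1, RUNDC3A and NEFM were put on it after their fold changes had been seen. Every value of a listed gene below is therefore a description of these libraries, and no p-value is given for one.

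RNA was sequenced from 3 groups of 3 libraries. Cells had received 10 nM of an siRNA against PHF12, an siRNA against SUDS3 or a negative control siRNA for 36 hours, with 1 siRNA per target, so loss of the target and other effects of that siRNA cannot be told apart. The labels do not say whether the 3 libraries of a group came from separate cultures, so their spread may be technical. Library totals ran between 37962926 and 50946148 counts, and 96.1% of all counts above 0 were multiples of 4, so that 1 sequenced fragment appears to be worth 4 counts. PHF12 stood at 26.9 ± 2.08 counts per 1000000 (CPM) in PHF12 knockdown cells against 49.9 ± 0.938 CPM in control cells, and SUDS3 stood at 22.1 ± 0.937 CPM in SUDS3 knockdown cells against 111.1 ± 3.31 CPM in control cells (SD, n = 3 each). SUDS3 was also lower in PHF12 knockdown cells (81.0 ± 0.784 CPM, log2 fold change -0.46, edgeR adjusted p = 6.83e-10), and PHF12 was higher in SUDS3 knockdown cells (61.5 ± 1.73 CPM, 0.30, edgeR adjusted p = 7.19e-05). CPM here are scaled by TMM, a correction for library composition.

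PHF12 and SUDS3 are subunits of SIN3 histone deacetylase complexes. REST, a zinc-finger repressor, binds a long DNA element near many neuronal genes in non-neuronal cells and recruits SIN3 through its N-terminal part and the CoREST complex through its C-terminal part. The list spans neurofilaments and a neuronal tubulin, proteins of synaptic vesicles, kinesin motors, adhesion molecules, postsynaptic scaffolds and kinases, ion channels, and proteins of growing neurites. HEK293 lines are known to express several such genes, neurofilaments among them.

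Promoter sequences are shown for 5 listed genes because the REST element is the sequence feature that links such genes to SIN3. The search used both half-sites of the element, CAGCACC and GGACAG, on both strands, in 300-base windows that start 250 bases before each RefSeq transcription start (GRCh38.p14). The table of windows held 26 of the 38 genes with 47 windows, and NPTX1, RUNDC3A, NEFL, NEFM, NEFH, GDAP1, DNER, KIF5A, NRXN2, SEZ6, SEZ6L2 and NCAM1 had no entry. SYN1 (synapsin I) has both half-sites, 2 bases apart with no mismatch, at position -231 (window at chrX:47619808-47620107, minus strand). Both half-sites also stand in a window each of CELSR3, KIF5C and KCNH2, though not joined in a perfect element. TUBB3 holds an element with 2 mismatches. The 5 genes shown are examples, and a link between these motifs and the fold changes was not tested. INA (chr10:103276888-103277187, plus strand) and RAB3A (chr19:18203993-18204292, minus strand) hold only the GGACAG half-site, which INA carries as its reverse complement CTGTCC. SYP (chrX:49200144-49200443, minus strand) and AP3B2 (chr15:82709826-82710125, minus strand), whose levels differed widely between the knockdowns, hold neither half-site in these windows. Capitals mark the match, and each line runs 5′ to 3′ on the strand of the gene.
SYN1: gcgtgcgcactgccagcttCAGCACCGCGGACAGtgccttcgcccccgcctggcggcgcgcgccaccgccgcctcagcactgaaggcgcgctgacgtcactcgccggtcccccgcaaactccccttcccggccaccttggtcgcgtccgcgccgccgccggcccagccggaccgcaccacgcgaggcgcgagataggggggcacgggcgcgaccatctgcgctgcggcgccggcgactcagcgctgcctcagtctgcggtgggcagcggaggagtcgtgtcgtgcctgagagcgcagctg
INA: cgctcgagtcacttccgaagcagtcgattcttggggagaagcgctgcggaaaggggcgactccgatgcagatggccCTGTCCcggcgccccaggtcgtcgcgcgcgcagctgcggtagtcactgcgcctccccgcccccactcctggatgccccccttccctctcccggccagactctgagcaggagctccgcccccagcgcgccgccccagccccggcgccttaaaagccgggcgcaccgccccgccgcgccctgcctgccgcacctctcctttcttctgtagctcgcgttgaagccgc
RAB3A: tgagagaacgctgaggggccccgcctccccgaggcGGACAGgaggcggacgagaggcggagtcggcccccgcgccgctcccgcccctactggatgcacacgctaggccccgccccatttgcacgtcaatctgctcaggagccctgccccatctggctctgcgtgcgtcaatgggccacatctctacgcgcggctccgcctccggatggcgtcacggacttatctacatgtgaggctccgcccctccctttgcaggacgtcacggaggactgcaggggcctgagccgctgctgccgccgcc
SYP: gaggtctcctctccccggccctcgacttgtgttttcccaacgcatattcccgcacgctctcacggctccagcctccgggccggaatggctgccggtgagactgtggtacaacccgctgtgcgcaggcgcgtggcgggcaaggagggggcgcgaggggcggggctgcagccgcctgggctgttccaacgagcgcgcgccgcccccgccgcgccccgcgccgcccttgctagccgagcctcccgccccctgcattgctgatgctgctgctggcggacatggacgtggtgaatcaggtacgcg
AP3B2: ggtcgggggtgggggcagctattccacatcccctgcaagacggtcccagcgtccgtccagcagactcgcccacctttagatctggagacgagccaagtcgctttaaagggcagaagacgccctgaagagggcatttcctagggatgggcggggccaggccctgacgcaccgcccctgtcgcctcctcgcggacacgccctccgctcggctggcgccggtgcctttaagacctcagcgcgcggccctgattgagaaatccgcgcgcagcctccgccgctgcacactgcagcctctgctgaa

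CAGCACC was present in 7 of the 47 windows of listed genes (14.9%) and in 7.75% of all 35116 windows. GGACAG was present in 11 of 47 (23.4%) and in 20.5% of all windows. A full element, with the half-sites 2 bases apart and at most 3 mismatches over their 13 fixed bases, was found in 10 of 47 windows (21.3%) and in 16.2% of all windows. With at most 2 mismatches it was found in 2 of 47 (4.26%) and in 2.03% of all windows. The windows of listed genes were also richer in CpG, with a median of 9.33 CpG per 100 bases against 4.67 over all windows. These are matches of letters in short windows, some genes contribute several overlapping windows, and sequence outside the windows was not searched.

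The genes were read at very different levels, which were compared per length, as a level recomputed from the counts and the total exon length of each gene (scaled to a sum of 1000000 per library, exons from GENCODE 29). In control cells the highest was NEFM, the medium neurofilament chain, at 218, followed by INA at 86.4, NEFL at 70.0, MAPK8IP2 at 31.1 and GDAP1 at 29.7. A recomputed level of at least 1 in at least 1 group was found for 30 of the 38 genes, and of at least 10 for 14. The deposited TPM values gave 27 genes at 1 or more.

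The deposited TPM did not carry gene length. Over 13535 genes with more than 500 counts, the counts per unit of TPM had a Pearson correlation of -0.01 with exon length, both on a log scale, and the deposited and recomputed levels correlated at 0.678. These correlations are across genes, which are not independent replicates. KIF1A, a long kinesin gene, shows the size of the gap in control cells, with a deposited TPM of 436 and a recomputed level of 21.0. SEZ6L2 went the other way, with a deposited TPM of 0.55 and a recomputed level of 21.5. Among those of the 13535 genes with no 0 in either table, the deposited TPM followed the counts within a gene. Taken against each library's median, the log2 ratio of counts to TPM had an SD across libraries of at most 0.0015. Genes with fewer counts were not checked. Fold changes here come from the counts, except in the limma fits, which use the TPM.

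**Figure D1:**
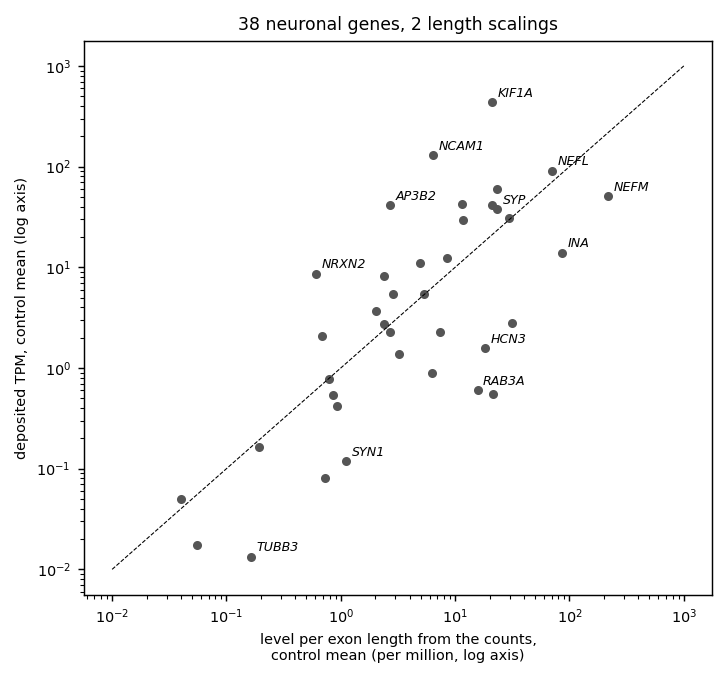
Deposited TPM (vertical, log axis) against the level recomputed per exon length (horizontal, log axis) as means of the 3 control libraries, 1 point per gene and a dashed line of equality. KIF1A and NCAM1 lie far above the line and SEZ6L2, at 21.5 on the horizontal and 0.55 on the vertical axis, far below it.

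**Figure D2:**
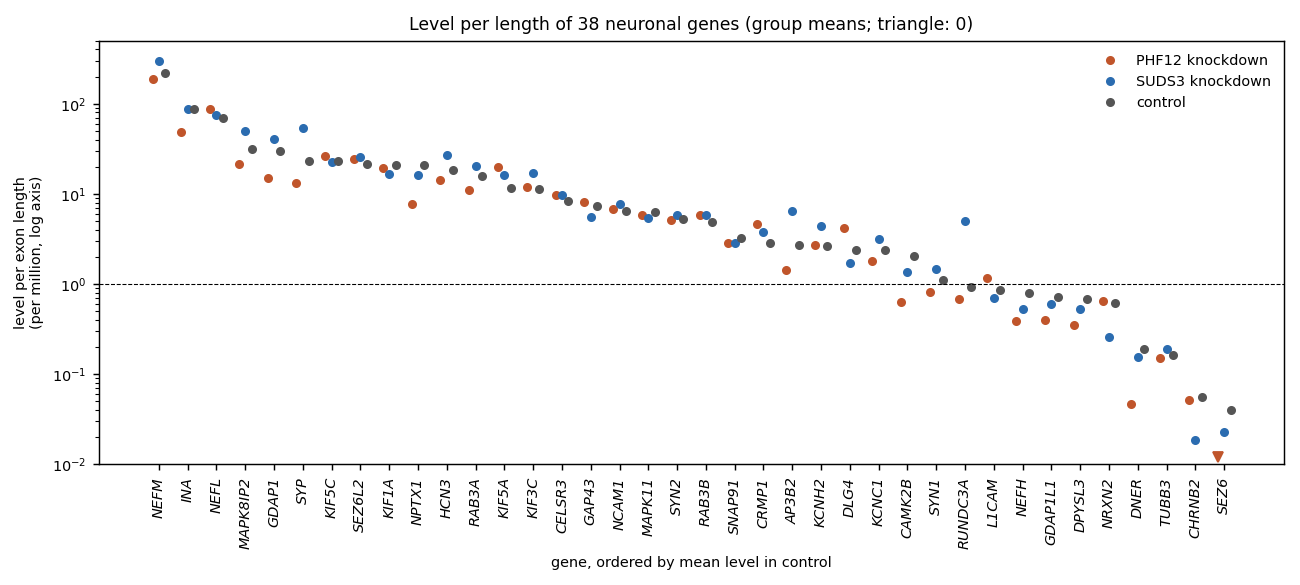
Recomputed level per exon length of the 38 genes (log axis, scaled to a sum of 1000000 per library) as the mean of 3 libraries in each group, ordered by the control mean, with a dashed line at 1 and a triangle for a mean of 0. NEFM leads at 218 in control cells, and SEZ6 is the gene with a triangle, in PHF12 knockdown cells.

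The 35 genes that passed the filter on low counts moved both ways in each comparison. With PHF12 knockdown, 7 of 35 rose and 12 fell at an adjusted p under 0.05 in the edgeR quasi-likelihood fit of all 18088 tested genes, against a background of 31.9% called (14.8% rose and 17.1% fell). With SUDS3 knockdown, 15 rose and 6 fell, against 38.7% called (19.6% rose and 19.2% fell). The fold changes themselves chose part of the list, so nothing is read from these counts. The median log2 fold change of the 35 genes was -0.13 with PHF12 knockdown and 0.17 with SUDS3 knockdown, beside -0.00 and -0.02 over all genes tested in those comparisons. The PHF12 median is the value of TUBB3, a gene with 88 counts in all and an SE of 0.88. With SUDS3 knockdown the falls numbered 3 without SUDS3 knockdown replicate 2 or without SUDS3 knockdown replicate 3, and the median was 0.067 without SUDS3 knockdown replicate 1 and 0.098 without control replicate 3. With PHF12 knockdown the median was -0.21 without control replicate 1, -0.23 without control replicate 3 and -0.07 without PHF12 knockdown replicate 2. Both comparisons share the 3 control libraries, so each gene's 2 values are given side by side and are not independent.

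In SUDS3 knockdown cells against PHF12 knockdown cells, 14 of the 35 genes were higher and 9 lower, with 43.9% of all genes called (22.7% higher and 21.1% lower). The median log2 difference was 0.40, beside -0.01 over all genes, and was 0.15 in limma on log2(TPM + 0.1) and 0.10 on log2(TPM + 1). The value of 0.40 is that of NEFH, a gene with 240 counts in all that did not pass (SE 0.57). The summed CPM of the 38 genes ran between 901 and 935 in PHF12 knockdown libraries, between 1203 and 1222 in SUDS3 knockdown libraries and between 1008 and 1026 in control libraries. The ranges did not overlap. Without NEFM, the gene with the largest sum, they were 666 to 697 with PHF12 knockdown, 838 to 857 with SUDS3 knockdown and 735 to 751 in control cells. In bulk RNA, fewer expressing cells and less RNA per cell cannot be told apart.

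**Figure D3:**
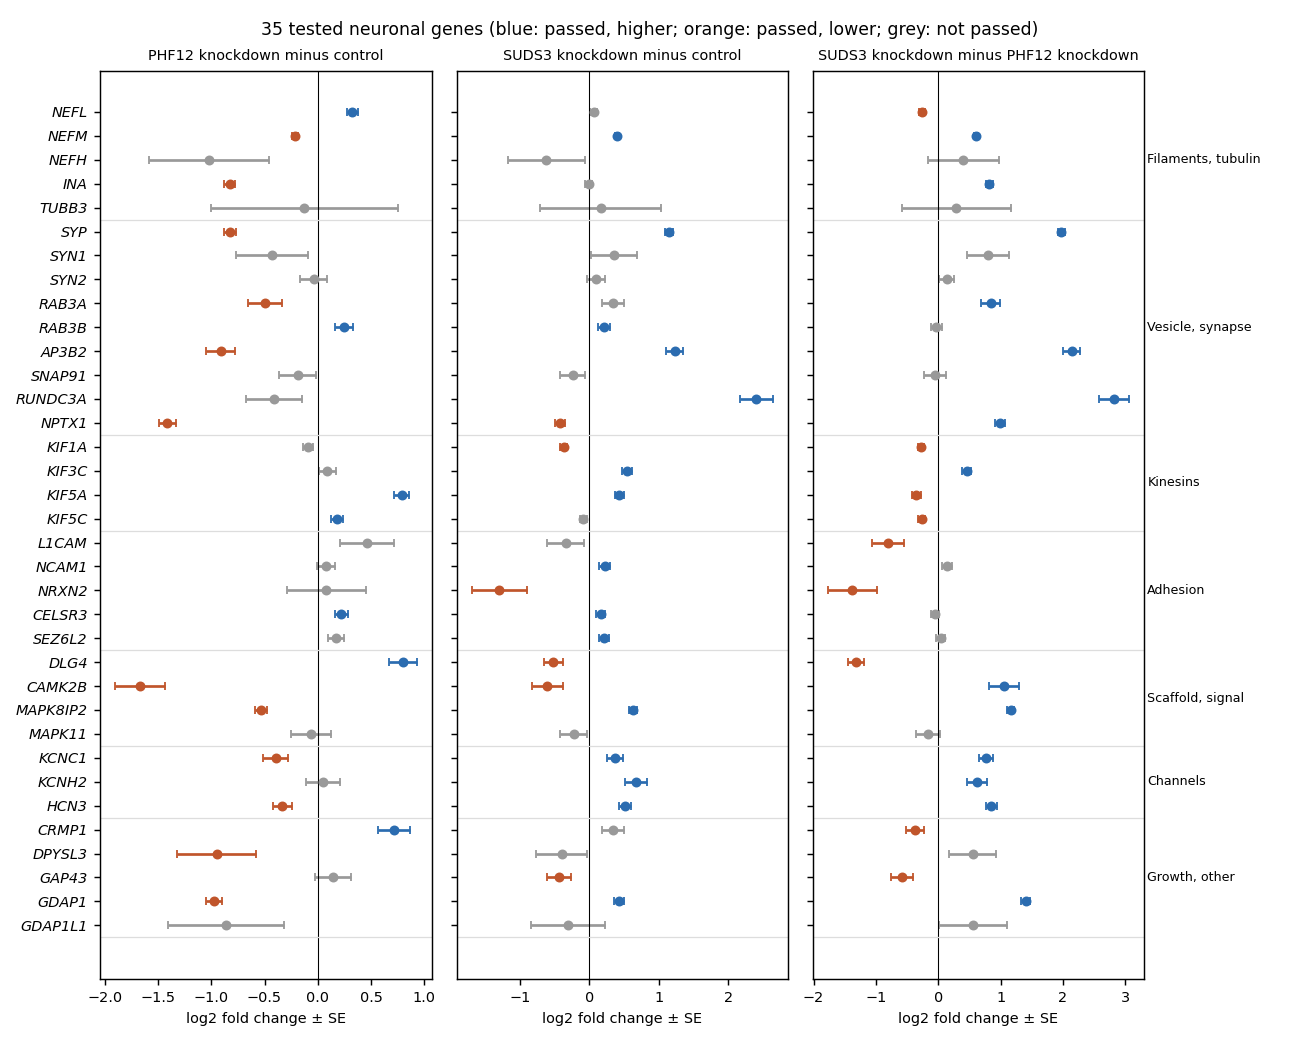
Log2 fold change ± SE (horizontal) of the 35 tested genes (rows, grouped by role) in the 3 comparisons, with blue for genes that passed the threshold upward, orange for genes that passed it downward and grey for the others. SYP, AP3B2 and GDAP1 lie left of 0 in the PHF12 panel and right of 0 in the SUDS3 panel, and DLG4 does the opposite.

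Neurofilament genes, which encode the intermediate filaments of axons, did not move together, and NEFM, INA and NEFL were the 3 highest of the list per length in control cells. NEFM had 238, 239.8 and 236 CPM in PHF12 knockdown libraries, 350.5, 365 and 374 CPM in SUDS3 knockdown libraries and 275, 284 and 269 CPM in control libraries. The 3 groups did not overlap, and NEFM fell by 0.22 ± 0.03 on the log2 scale with PHF12 knockdown and rose by 0.40 ± 0.03 with SUDS3 knockdown (± SE throughout for fold changes). INA (alpha-internexin) had 45.3, 47.6 and 43.2 CPM with PHF12 knockdown, 83.1, 76.6 and 80.8 CPM with SUDS3 knockdown and 78.3, 79.6 and 84.0 CPM in control cells. INA thus fell with PHF12 knockdown, by 0.83 ± 0.05 on the log2 scale, while its SUDS3 knockdown and control libraries overlapped (log2 fold change -0.01 ± 0.05). NEFL, the light chain, averaged 109 ± 7.70 CPM in PHF12 knockdown cells, 91.5 ± 7.03 CPM in SUDS3 knockdown cells and 87.6 ± 2.28 CPM in control cells (SD, n = 3 each). It rose with PHF12 knockdown (0.32 ± 0.05) and did not pass with SUDS3 knockdown (0.06 ± 0.05). NEFH, the heavy chain, passed in neither comparison, with 0.425 ± 0.0347 CPM in PHF12 knockdown cells, 0.566 ± 0.407 CPM in SUDS3 knockdown cells and 0.866 ± 0.348 CPM in control cells.

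TUBB3, the beta-tubulin used as a marker of neurons, had 88 counts over all 9 libraries, and its level is uncertain. A read-through gene, AC092143.1, shares 1584 of its 4430 exon bases (35.8%) and had a count of 0 in all libraries, so reads in the shared exons may have been assigned to neither gene.

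Among genes of synaptic vesicles and the presynapse, SYP, AP3B2 and RUNDC3A differed widely between the knockdowns, while SUDS3 against PHF12 knockdown gave log2 differences of -0.03 for RAB3B, -0.05 for SNAP91 and 0.13 for SYN2. SYP (synaptophysin, ENSG00000102003, a membrane protein of synaptic vesicles, chromosome X, 49187804 to 49200259) had 19.9, 19.1 and 20.6 CPM in PHF12 knockdown libraries, 76.9, 79.0 and 77.9 CPM in SUDS3 knockdown libraries and 36.5, 34.5 and 34.4 CPM in control libraries. The libraries of each group lay close together and apart from the others, with a log2 fold change of -0.82 ± 0.06 with PHF12 knockdown and 1.15 ± 0.06 with SUDS3 knockdown. Between the knockdowns, SYP was 3.93-fold higher in SUDS3 knockdown cells than in PHF12 knockdown cells.

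AP3B2, the neuronal beta subunit of the AP-3 adaptor, had 4.66, 3.08 and 3.61 CPM with PHF12 knockdown, 17.2, 15.3 and 17.6 CPM with SUDS3 knockdown and 7.40, 7.18 and 6.76 CPM in control cells. It fell by 0.91 ± 0.14 with PHF12 knockdown and rose by 1.23 ± 0.13 with SUDS3 knockdown on the log2 scale, with no overlap between groups. RUNDC3A, a RUN-domain protein expressed in neurons, had 0.915, 1.03 and 1.02 CPM with PHF12 knockdown, 6.05, 7.01 and 7.85 CPM with SUDS3 knockdown and 0.731, 1.73 and 1.48 CPM in control cells. It rose 5.3-fold with SUDS3 knockdown, the largest log2 fold change among the 35 genes at 2.41 ± 0.24, and its PHF12 knockdown and control libraries overlapped. An antisense gene, RUNDC3A-AS1, overlaps it, and no source used here states whether reads were counted by strand. Other listed genes, AP3B2, MAPK8IP2, DLG4 and HCN3 among them, also lie across a tested gene of the other strand.

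NPTX1 (neuronal pentraxin 1, a secreted synapse organiser, ENSG00000171246) was lower in both knockdowns, with 15.8, 13.4 and 16.7 CPM with PHF12 knockdown, 31.0, 31.2 and 28.8 CPM with SUDS3 knockdown and 40.9, 41.5 and 39.4 CPM in control cells. The groups did not overlap, and the log2 fold changes were -1.41 ± 0.08 with PHF12 knockdown and -0.42 ± 0.07 with SUDS3 knockdown. The other genes of this group moved less. The small GTPase gene RAB3A, which acts in vesicle release, had a log2 fold change of -0.50 ± 0.16 with PHF12 knockdown and 0.34 ± 0.15 with SUDS3 knockdown. Its PHF12 knockdown and control libraries overlapped, and the call was lost without control replicate 1 (-0.29) or PHF12 knockdown replicate 2. RAB3B, a close relative of it, rose by 0.25 ± 0.09 with PHF12 knockdown and by 0.21 ± 0.09 with SUDS3 knockdown, calls that several left-out libraries ended. SYN1, whose window holds the full element, had 1.08, 0.633 and 1.02 CPM with PHF12 knockdown, 2.11, 1.25 and 1.37 CPM with SUDS3 knockdown and 1.28, 1.04 and 1.37 CPM in control cells. Its knockdown and control libraries overlapped, and neither it nor SYN2 (synapsin II) nor SNAP91, a clathrin assembly protein of nerve terminals, passed in any comparison.

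**Figure D4:**
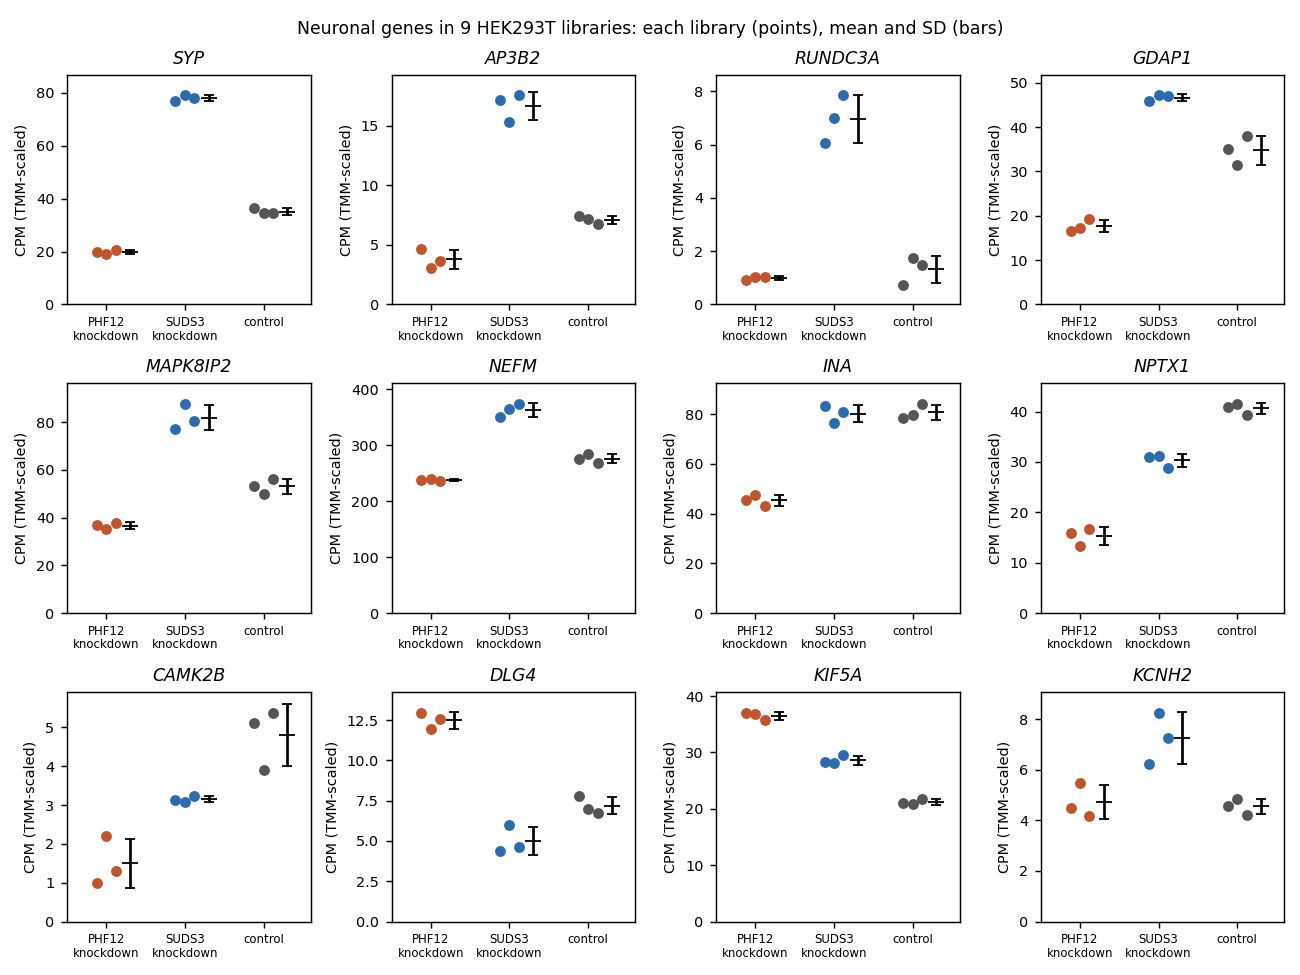
TMM-scaled CPM (vertical axis, from 0) of 12 genes in each of the 9 libraries (points), with the mean and SD of 3 libraries as a bar beside them. In the SYP panel the SUDS3 knockdown points lie between 76.9 and 79.0 CPM, above all control points, and the PHF12 knockdown points lie between 19.1 and 20.6 CPM, below them.

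Kinesin genes, which encode microtubule motors of axonal transport, had recomputed levels between 11.4 (KIF3C) and 23.2 (KIF5C) in control cells. KIF5A, a neuronal heavy chain of conventional kinesin, had 37.1, 36.8 and 35.7 CPM with PHF12 knockdown, 28.3, 28.1 and 29.5 CPM with SUDS3 knockdown and 21.0, 20.8 and 21.8 CPM in control cells. It was higher in every knockdown library than in any control library and rose by 0.79 ± 0.07 and 0.43 ± 0.07 on the log2 scale with PHF12 and SUDS3 knockdown. KIF3C rose with SUDS3 knockdown (0.54 ± 0.08) and KIF1A, a motor for synaptic vesicle precursors, fell with it (-0.37 ± 0.05), while neither passed with PHF12 knockdown (0.09 ± 0.08 for KIF3C and -0.09 ± 0.05 for KIF1A). KIF5C rose with PHF12 knockdown by 0.18 ± 0.05, a call lost without control replicate 2 or PHF12 knockdown replicate 2, and had a log2 fold change of -0.09 ± 0.05 with SUDS3 knockdown.

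Most adhesion genes had small fold changes, and NRXN2 and L1CAM had larger ones at low levels. CELSR3, an atypical cadherin of axon guidance, rose by 0.22 ± 0.06 with PHF12 knockdown, a call lost without PHF12 knockdown replicate 1. It rose by 0.17 ± 0.07 with SUDS3 knockdown, a call lost on leaving out any of 5 single libraries. SEZ6L2 and NCAM1, a cell adhesion molecule of the immunoglobulin family, rose by 0.21 ± 0.08 and 0.22 ± 0.08 with SUDS3 knockdown, calls that 4 left-out libraries each ended. NRXN2 (neurexin 2, a presynaptic receptor) had 1.91, 1.58 and 2.50 CPM with PHF12 knockdown, 1.38, 0.250 and 0.686 CPM with SUDS3 knockdown and 1.74, 2.94 and 0.950 CPM in control cells. The SUDS3 knockdown and control libraries overlapped, and its fall of 1.30 ± 0.40 on the log2 scale was no longer called without control replicate 2 (-0.82), SUDS3 knockdown replicate 2 or SUDS3 knockdown replicate 3. Without SUDS3 knockdown replicate 1 it was -2.03 and still called. L1CAM, an axonal adhesion molecule, passed in neither comparison with control (0.46 ± 0.26 with PHF12 knockdown and -0.34 ± 0.26 with SUDS3 knockdown). In SUDS3 knockdown against PHF12 knockdown cells both were lower, with no overlap between libraries. The log2 difference was -1.38 ± 0.40 for NRXN2, called in each of the 9 fits that left out 1 library (-2.12 to -0.94), and -0.80 ± 0.26 for L1CAM, not called without PHF12 knockdown replicate 3 or SUDS3 knockdown replicate 1.

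Among postsynaptic scaffolds and signalling proteins, DLG4 and MAPK8IP2 moved in opposite senses. DLG4, which encodes the scaffold PSD-95, had 12.98, 11.9 and 12.6 CPM with PHF12 knockdown, 4.40, 6.01 and 4.61 CPM with SUDS3 knockdown and 7.77, 7.01 and 6.76 CPM in control cells. No groups overlapped, and DLG4 rose by 0.80 ± 0.13 with PHF12 knockdown and fell by 0.52 ± 0.13 with SUDS3 knockdown. MAPK8IP2, a scaffold of the JNK pathway, had 36.8, 35.3 and 37.9 CPM with PHF12 knockdown, 77.3, 87.7 and 80.6 CPM with SUDS3 knockdown and 53.2, 49.99 and 56.2 CPM in control cells. It fell by 0.53 ± 0.06 with PHF12 knockdown and rose by 0.63 ± 0.06 with SUDS3 knockdown, again with no overlap. CAMK2B, a subunit of the calcium/calmodulin kinase CaMKII, had 0.998, 2.21 and 1.30 CPM with PHF12 knockdown, 3.12, 3.09 and 3.24 CPM with SUDS3 knockdown and 5.12, 3.89 and 5.38 CPM in control cells. All knockdown libraries lay below all control libraries, with log2 fold changes of -1.66 ± 0.23 with PHF12 knockdown and -0.61 ± 0.22 with SUDS3 knockdown, and the SUDS3 call was lost on leaving out any of 5 single libraries. MAPK11, a p38 kinase, passed in no comparison.

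The voltage-gated channel genes KCNC1, KCNH2 and HCN3 rose with SUDS3 knockdown, as did 19.6% of all tested genes, and the receptor channel gene CHRNB2 was not tested. KCNC1, a fast voltage-gated potassium channel, rose by 0.37 ± 0.11, KCNH2, the hERG potassium channel, by 0.67 ± 0.16 and HCN3, a hyperpolarisation-activated channel, by 0.52 ± 0.09. With PHF12 knockdown KCNC1 and HCN3 fell, by 0.40 ± 0.11 and 0.33 ± 0.09, and KCNH2 did not pass (0.05 ± 0.16). HCN3 lost that call without control replicate 2 (-0.26). It averaged 17.3 ± 1.85 CPM in PHF12 knockdown cells, 31.2 ± 3.01 CPM in SUDS3 knockdown cells and 21.8 ± 2.07 CPM in control cells, and the groups did not overlap.

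Among genes of neurite growth and the remaining genes, GDAP1 was the most abundant. GDAP1, a mitochondrial outer-membrane protein mutated in Charcot-Marie-Tooth disease, had 16.6, 17.2 and 19.3 CPM with PHF12 knockdown, 45.8, 47.1 and 47.0 CPM with SUDS3 knockdown and 35.1, 31.4 and 37.9 CPM in control cells. It fell by 0.98 ± 0.07 with PHF12 knockdown and rose by 0.42 ± 0.07 with SUDS3 knockdown, with no overlap between groups. CRMP1, a collapsin response mediator protein, rose with PHF12 knockdown (0.71 ± 0.15) and did not pass with SUDS3 knockdown (0.34 ± 0.15). DPYSL3, of the same family, had 0.582, 0.870 and 0.741 CPM with PHF12 knockdown, 0.826, 0.834 and 1.57 CPM with SUDS3 knockdown and 1.46, 1.82 and 0.950 CPM in control cells. These low values put it just past the threshold with PHF12 knockdown (-0.95 ± 0.37), a call lost in DESeq2, with the replicate block and on leaving out any of 5 single libraries. GAP43, a growth-cone protein, fell by 0.44 ± 0.18 with SUDS3 knockdown, a call that most left-out libraries and the replicate block ended. GDAP1L1 did not pass in any comparison.

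CHRNB2, DNER and SEZ6 did not reach the filter. CHRNB2, a nicotinic receptor subunit, had 28 counts over the 9 libraries, DNER, a transmembrane ligand of Notch, had 60, and SEZ6 had 12. SEZ6 was at 0 in all 3 PHF12 knockdown libraries, in 2 SUDS3 knockdown libraries and in 1 control library. The limit that a count of 0 allows, 3 fragments or 12 counts, is 0.237 to 0.317 CPM depending on the library, so differences in these genes were not detectable at this depth.

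Family relatives that are not on the list, 62 genes taken by family name, also moved both ways. They were chosen with earlier results of these libraries known, and those given a p-value below were named for the size of their change. Their adjusted p-values therefore only describe these libraries. With PHF12 knockdown 16 of 52 tested relatives rose and 16 fell (61.5%, beside 31.9% of all tested genes), with a median log2 fold change of -0.02. With SUDS3 knockdown 19 rose and 10 fell (55.8%, beside 38.7% of all), with a median of 0.09. SYPL1, the widely expressed relative of SYP, rose with PHF12 knockdown by 0.70 (adjusted p = 1.22e-13) and with SUDS3 knockdown by 0.78 (adjusted p = 1.09e-14; edgeR quasi-likelihood test with Benjamini-Hochberg adjustment, also below). SYP itself had -0.82 with PHF12 knockdown and 1.15 with SUDS3 knockdown. TUBB2B, a tubulin of the developing brain, fell with PHF12 knockdown by 1.43 (adjusted p = 7.2e-19), and RAB3C fell by 1.07 (adjusted p = 4.14e-05). In the same comparison DLG5, a relative of DLG4, rose by 0.40 (adjusted p = 9.97e-09). With SUDS3 knockdown NPTXR, the pentraxin receptor, fell by 0.84 (adjusted p = 3.35e-05), CHRNA3 fell by 0.71 (adjusted p = 0.00375) and KIF3B rose by 0.74 (adjusted p = 5.68e-16) in the edgeR test. AP3B1, the ubiquitous relative of AP3B2, had log2 fold changes of 0.26 with PHF12 knockdown and 0.25 with SUDS3 knockdown.

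**Figure D5:**
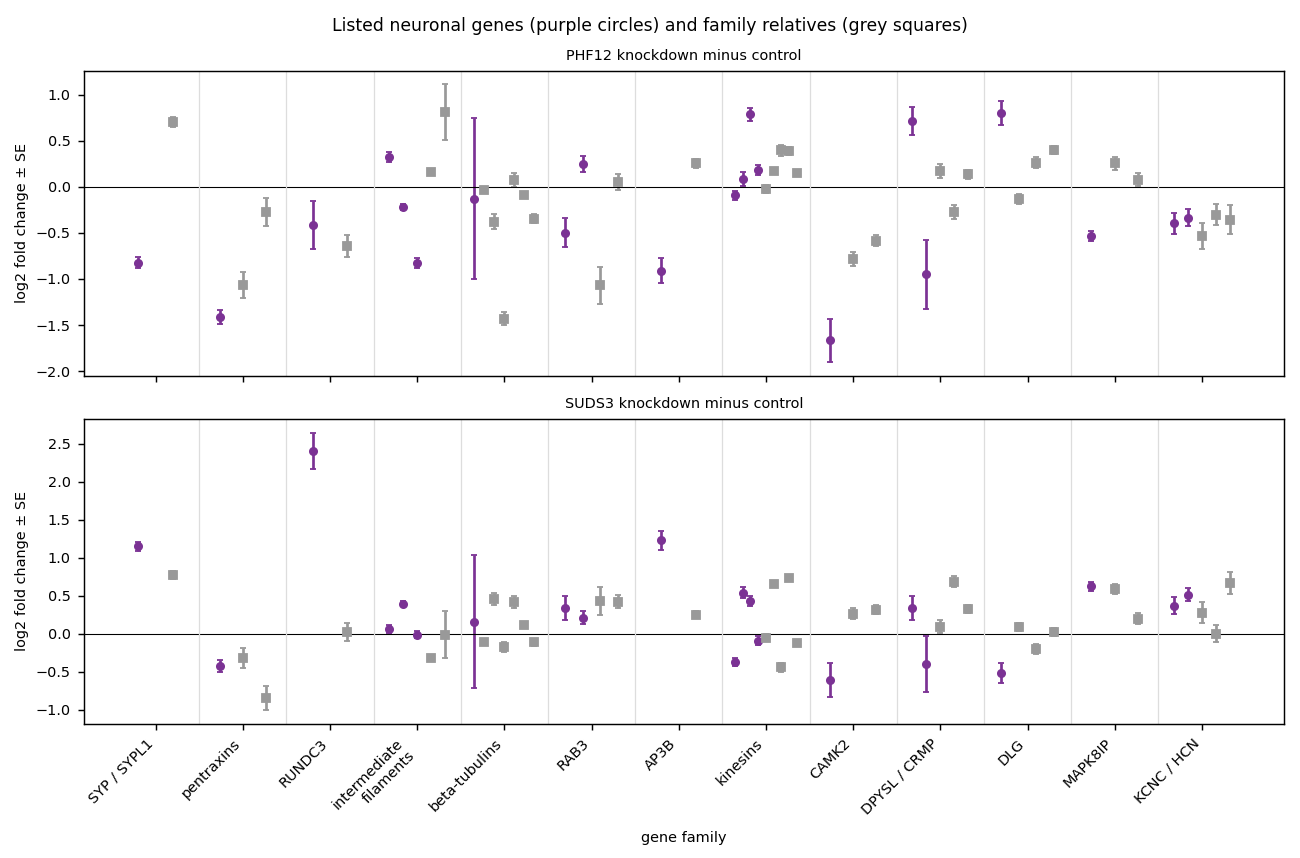
Log2 fold change ± SE (vertical) of listed genes (purple circles) and of their tested family relatives (grey squares), by gene family, with PHF12 knockdown above and SUDS3 knockdown below. In the first family SYP lies at -0.82 and 1.15 in the panels, while SYPL1 lies at 0.70 and 0.78.

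A second set of 40 neuronal genes, none of them on the list and chosen from general knowledge as genes linked to REST, had 29 tested genes. REST sites were not searched in them. With PHF12 knockdown none of these rose by the edgeR quasi-likelihood test (0 also by DESeq2 and at an unadjusted p under 0.05) and 13 fell, beside 14.8% and 17.1% of all tested genes, with a median log2 fold change of -0.28. With SUDS3 knockdown 15 rose and 2 fell, beside 19.6% and 19.2% of all, with a median of 0.88. CPLX1 (complexin 1) fell with PHF12 knockdown by 1.81 on the log2 scale (adjusted p = 2.91e-11, edgeR). CHGA (chromogranin A, a granule protein) fell by 1.20 with PHF12 knockdown (adjusted p = 8.59e-05, edgeR) and rose by 1.97 with SUDS3 knockdown (adjusted p = 7.56e-10, edgeR). UNC13A, a priming factor of vesicle release, rose by 2.28 with SUDS3 knockdown (adjusted p = 4.63e-12, edgeR). This set was also assembled with earlier results of these libraries known and is not independent evidence of a direction. Its genes with a p-value were named for the size of their change, so those p-values only describe these libraries.

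The repressor REST moved too. It had 61.6, 65.3 and 69.7 CPM in PHF12 knockdown libraries, 34.9, 34.95 and 36.4 CPM in SUDS3 knockdown libraries and 50.4, 46.7 and 51.3 CPM in control libraries. The groups did not overlap, with a rise of 0.41 ± 0.06 with PHF12 knockdown (edgeR adjusted p = 4.59e-07) and a fall of 0.48 ± 0.06 with SUDS3 knockdown (edgeR adjusted p = 2.67e-08). A list of 10 genes held REST and its corepressors. With PHF12 knockdown 3 of them rose, REST among them, and 1 fell (4 of 10, beside 31.9% of all tested genes). With SUDS3 knockdown 5 rose and 1 fell (6 of 10, beside 38.7% of all), and the gene that fell was REST itself. The part of REST in the values of the listed genes was not tested.

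The line was set against markers of kidney and of other cell types. Of 10 kidney epithelial markers, 9 had a recomputed level of at least 1 in every group, and their summed level was 205 to 210.4 in PHF12 knockdown libraries, 178 to 181 in SUDS3 knockdown libraries and 219.5 to 234 in control libraries. With PHF12 knockdown 2 of the 10 rose and 4 fell (median -0.09), beside 31.9% of all tested genes called. With SUDS3 knockdown 0 rose and 6 fell (median -0.53), beside 38.7% called. Markers of mature kidney segments were at or near 0, with UMOD, AQP2 and SLC12A1 at a count of 0 in all libraries. Of 10 neuron markers, ELAVL4, SLC17A6 and TH were at 0 in all libraries and 2 reached a level of 1. RBFOX3, ELAVL3 and ELAVL4 also belong to the second set of neuronal genes above, so these lists are not separate. The summed level of the neuron markers was 6.23 to 7.61 in PHF12 knockdown libraries, 5.67 to 7.72 in SUDS3 knockdown libraries and 7.88 to 8.19 in control libraries. Of the 5 neuron markers tested, 2 rose and 2 fell with PHF12 knockdown, beside 31.9% of all tested genes called. With SUDS3 knockdown 1 of the 5 rose and 4 fell, beside 38.7% called. The medians of these neuron markers were -0.56 and -1.10 on the log2 scale, with group means of at most 14.1 CPM. Their part in the results was not tested. Of 5 glia markers 1 reached a level of 1, and of 4 blood and fibroblast markers 2 did, both collagen genes, with PTPRC at 0. The summed level of the glia markers was 10.7 to 11.6 in PHF12 knockdown libraries, 10.3 to 14.0 in SUDS3 knockdown libraries and 9.52 to 11.96 in control libraries. The summed level of the blood and fibroblast markers was 7.17 to 8.10 in PHF12 knockdown libraries, 8.76 to 9.81 in SUDS3 knockdown libraries and 5.27 to 5.55 in control libraries, with no overlap. COL1A1, a collagen gene, rose with PHF12 knockdown (0.55) and SUDS3 knockdown (0.82) in the edgeR test. The part of these markers in the results was not tested.

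A pair of 3′ UTR hexamers, AATCAC and TACATT, had been picked from the fold changes of these libraries in earlier work, so their match to the listed genes is a description. AATCAC was present in the longest annotated 3′ UTR of 11 of the 35 tested genes, against 30.7% of 13770 tested protein-coding genes. It was held by 4 of the 12 genes that fell with PHF12 knockdown, 4 of the 7 that rose and 3 of the 16 others. TACATT was present in 10 of 35, against 40.9% of all, and was held by 1 of the 6 genes that fell with SUDS3 knockdown, 3 of the 15 that rose and 6 of the 14 others. The first sites of 3 genes that fell with PHF12 knockdown (INA, AP3B2, CAMK2B) and of 2 that rose (DLG4, CRMP1) are shown with 12 bases on each side, from GENCODE 29 transcripts, with the hexamer in capitals, because the same hexamer stands in genes of both directions.
INA site: cagtcctggagcAATCACagatgagttatc
AP3B2 site: ccgaagcaggcaAATCACaaggtcaggagt
CAMK2B site: aaaagctgtaaaAATCACtggcattcgtgg
DLG4 site: tagaaggggcagAATCACatatttgacctg
CRMP1 site: gttttcctttgtAATCACtcccatttttac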

How the data were processed

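Stranded poly-A RNA-seq was made from HEK293T cells 36 hours after siRNA transfection. The authors deposited a table of read counts for 58735 genes and a table of TPM, and the submitters' processing notes name Trimmomatic 0.36, HISAT2 2.1.0, HTSeq and GRCh38; no source used here gives the strand setting. The TPM deposited by the authors did not depend on gene length, so levels between genes were recomputed from the counts and GENCODE 29 exon lengths. The deposited counts were fitted over all 9 libraries in edgeR 4.0.16 (R 4.3.3; filterByExpr with a minimum count of 10, TMM, robust quasi-likelihood), with Benjamini-Hochberg adjustment over 18088 genes and a threshold of 0.05; SEs are the log2 fold change over the square root of F. Library totals of 37962926 to 50946148 counts set the precision, and limits for a count of 0 cover counting error only.

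The listed genes, relatives, other neuronal genes, markers, hexamers and motifs were chosen with earlier results of these data known. Values per library were given for listed genes with a log2 fold change of at least 0.8 in size against control and a mean of at least 1 CPM. DLG4, NEFM, KIF5A, MAPK8IP2 and SYN1 were added after their values were seen. From relatives and other neuronal genes, up to 2 rises and 2 falls past the threshold at an average log2 CPM of at least 1 were named, and AP3B1 was added after its values were seen. Some genes of these lists are not reported by name here. Alternatives were DESeq2 1.42.0, other scalings and filters, counts divided by 4, limma 3.58.1 on log2(TPM + 0.1) and log2(TPM + 1), a replicate block and leaving out each library. Of the listed genes, 15 lie across a tested gene of the other strand, and 4 share a name with a pseudogene. The 15 are RUNDC3A, NEFL, NEFM, SYN1, SYN2, GDAP1, RAB3A, AP3B2, SEZ6, NCAM1, DLG4, KCNC1, HCN3, MAPK8IP2 and CRMP1.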

Additional observations from a re-analysis of the deposited data

How the results depend on the processing

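Over 1976 fold changes of listed genes under an alternative, 1874 kept their side of the threshold, 91 lost it, 11 gained it and 0 changed sign with a call. Fold changes without a call could change sign. TUBB3, not called with PHF12 knockdown in the main fit, ran from -0.74 to 0.42 when 1 library was left out. Leaving out 1 library at a time, 5 to 8 genes rose and 10 to 12 fell with PHF12 knockdown (median log2 fold change -0.23 to -0.07), 11 to 14 rose and 3 to 6 fell with SUDS3 knockdown (median 0.067 to 0.21), and 14 to 15 were higher and 7 to 9 lower in SUDS3 than in PHF12 knockdown cells (median 0.31 to 0.47). The SUDS3 falls numbered 3 without SUDS3 knockdown replicate 2 or without replicate 3. The SUDS3 median of 0.17 was 0.21 with a minimum count of 40, 0.21 with counts divided by 4 and 0.088 in limma on log2(TPM + 1). The median of SUDS3 against PHF12 knockdown, 0.40, was 0.29 with a minimum count of 40, 0.29 with counts divided by 4, 0.28 with the replicate block, 0.15 in limma on log2(TPM + 0.1) and 0.10 on log2(TPM + 1); beyond the genes dropped by the stricter filters, the cause was not tested. Upper-quartile scaling moved the share of rises among all called genes to 56.9%, against 46.4%, with PHF12 knockdown, and to 41.2%, against 51.8%, between the knockdowns. Replicate numbers are shared by the groups. Same-numbered libraries had correlations of their deviations between -0.17 and 0.20 and differently numbered ones between -0.21 and 0.16. These values show no pairing by number, but with so few libraries per group they cannot exclude one. In every group replicate 2 had the largest total count and replicate 3 the smallest. With the replicate block 7 genes rose and 11 fell with PHF12 knockdown, and 15 rose and 5 fell with SUDS3 knockdown. Other fits moved the number of listed genes called further. The main fit called 19 with PHF12 and 21 with SUDS3 knockdown, and each limma fit called 15 and 16. Upper-quartile scaling called 19 and 17, and counts divided by 4 called 19 and 22 of the 32 genes tested there. Detection at a deposited TPM of 1 or more, 27 genes, was 30 by the recomputed level, an alternative chosen after seeing the data.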
